A study of Mus musculus with 67 samples.

Results

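The genes described here encode the proteins of the mitochondrial ribosome. They were chosen by symbol alone, as every gene of the expression table named Mrpl or Mrps followed by a number, and 2 pseudogenes with such names were left out. That gave 77 of the 26414 genes in the table, 48 named Mrpl and 29 named Mrps. The names do not always give the subunit: Mrps18a and Mrps30 encode proteins of the large subunit, and Mrps36 encodes a protein now assigned to the 2-oxoglutarate dehydrogenase complex.

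The mitochondrial ribosome is a separate machine from the cytosolic ribosome and translates only the few messages encoded by mitochondrial DNA, all of them subunits of the respiratory chain and ATP synthase. Its RNAs come from mitochondrial DNA, whereas all of its proteins are made in the cytosol from nuclear genes and imported. Some of these proteins have a counterpart in bacterial ribosomes, and others are found only in mitochondria. Early embryos inherit their mitochondria from the oocyte, and their nuclear genome becomes the main source of new messages during the 2-cell stage.

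The study compared C57BL/6 mouse embryos, made by fertilization in vitro, that were lit at the 2-cell stage with embryos kept in the dark. Per the methods of the study, light meant 5000 lx for 6 h from a bulb in the incubator followed by culture in the dark, and control embryos had 0 lx. The 67 SMART-seq2 libraries came from 5 stages. There were 7 control and 6 light libraries at 2-cell, 6 and 8 at 4-cell, 4 and 8 at 8-cell, 13 and 6 at morula, and 3 and 6 at blastocyst. The labels call each library an embryo and the methods describe single cells from dissociated embryos, so a library may hold only a part of an embryo. No source says which libraries share an embryo or a litter. P-values measure the spread between these libraries, which may include cells of the same embryo, and cannot be read as the spread between embryos.

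Total reads per library lay between 836011 and 8551674, and 54.0% to 89.3% of them fell on CT010467.1 and Gm42418, which overlap ribosomal RNA repeats. Levels are therefore given as CPM, reads per 1000000 reads outside those 2 genes, of which a library had 318177 to 2867034. CPM is a share of the messages, so a lower share and less RNA per cell cannot be told apart. A gene was called when its difference on the log2(CPM + 1) scale was at least 2-fold with an adjusted p under 0.05, by limma with Benjamini-Hochberg adjustment over all genes tested. Stage markers followed the labels, in that 11 transient 2-cell genes such as Zscan4c summed to a median of 451 CPM in control 2-cell and 36.7 CPM in control 4-cell libraries, and 10 trophectoderm genes such as Cdx2 summed to 4112 CPM in control blastocysts. The control 8-cell libraries were an exception, with a median sum of 460 CPM for the transient 2-cell genes. By correlation over genes, 5 of the 6 control 4-cell and 12 of the 13 control morula libraries were closer to the light libraries of their stage than to their own group, and all 4 control and 6 of the 8 light 8-cell libraries had their nearest library in another stage. Control 4-cell libraries 1 and 2 had the lowest median correlations with their own group, 0.797 and 0.798 against 0.851 to 0.855 for the other 4, with 10645 and 10881 genes with a read against 12833 to 13368.

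The promoters below are shown because nuclear genes for mitochondrial proteins are known for sites of NRF1, of ETS family factors such as GABPA, and of YY1. RefSeq promoter windows of GRCm38.p6, from 250 bases before to 50 after the start, were found for 68 of the 77 genes. On either strand, the ETS letters CCGGAAG stood in a window of 25 of the 68 genes (36.8%) against 9.93% of all 27025 genes with a window, some of which have several. The NRF1 core GCATGCGC stood in 8 (11.8%) against 3.05%. The YY1 letters AAGATGGC stood in 12 (17.6%) against 3.19%, and the TATA box letters TATAAA stood in 5 (7.35%) against 15.7%. A match is a stretch of letters and not evidence of binding, and the median GC content was 58.2% in these windows against 52.7% over all genes. The last 80 bases before the start follow for 6 genes called in the light comparisons, chosen to show matches, with Mrpl55 as one without. Over all genes called higher in light, the ETS letters stood in 5 of 12 at 2-cell and in 2 of 9 at 8-cell (22.2%). Capitals mark the matches, read from the gene's own strand.
Mrpl22: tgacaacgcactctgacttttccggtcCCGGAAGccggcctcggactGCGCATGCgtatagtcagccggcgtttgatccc
Mrps22: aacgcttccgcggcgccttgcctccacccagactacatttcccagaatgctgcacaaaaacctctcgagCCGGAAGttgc
Mrpl58: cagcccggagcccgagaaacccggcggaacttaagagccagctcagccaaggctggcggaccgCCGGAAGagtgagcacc
Mrpl43: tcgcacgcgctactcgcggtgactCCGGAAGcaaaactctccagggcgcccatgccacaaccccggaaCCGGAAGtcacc
Mrps27: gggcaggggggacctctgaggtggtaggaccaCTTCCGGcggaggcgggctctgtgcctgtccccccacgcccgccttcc
Mrpl55: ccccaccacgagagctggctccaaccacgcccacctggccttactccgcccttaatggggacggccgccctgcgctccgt

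These windows are chr11:58171584-58171663 (plus strand) for Mrpl22, chr9:98601680-98601759 (minus) for Mrps22, chr11:115403672-115403751 (plus) for Mrpl58, chr19:45006443-45006522 (minus) for Mrpl43, chr13:99344706-99344785 (plus) for Mrps27 and chr11:59202406-59202485 (plus) for Mrpl55. The ETS letters began 53 bases before the start in Mrpl22, 11 in Mrps22, 17 in Mrpl58, 56 and 12 in Mrpl43, and 48 in Mrps27, where they read on the other strand as CTTCCGG. The NRF1 core of Mrpl22 began 33 bases before the start and also reads on the other strand. The table held no window for Mrpl15, Mrpl19 and Mrps34, which are named below.

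The summed level of the 77 genes was lowest in the 2-cell embryo and higher at every later stage. In control libraries the sum had a lowest, median and highest value of 1370, 1720 and 2042 CPM at 2-cell, and of 4533, 6010 and 7030 CPM at 4-cell. At 8-cell the control sum was 3651, 3943 and 4460 CPM, at morula 4767, 6447 and 7445 CPM, and at blastocyst 3326, 3857 and 4317 CPM. The control sums of 2-cell and 4-cell libraries therefore did not overlap, the 8-cell and blastocyst ranges did, and the morula and 4-cell ranges did. In light libraries the lowest, median and highest sums were 1833, 2672 and 3568 CPM at 2-cell, 3977, 4429 and 4959 CPM at 4-cell, 4361, 5343 and 6772 CPM at 8-cell, 4723, 5708 and 6421 CPM at morula, and 4153, 5452 and 7310 CPM at blastocyst. Light sums lay mostly above control sums at 2-cell, 8-cell and blastocyst and below or among them at 4-cell and morula.

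**Figure D1:**
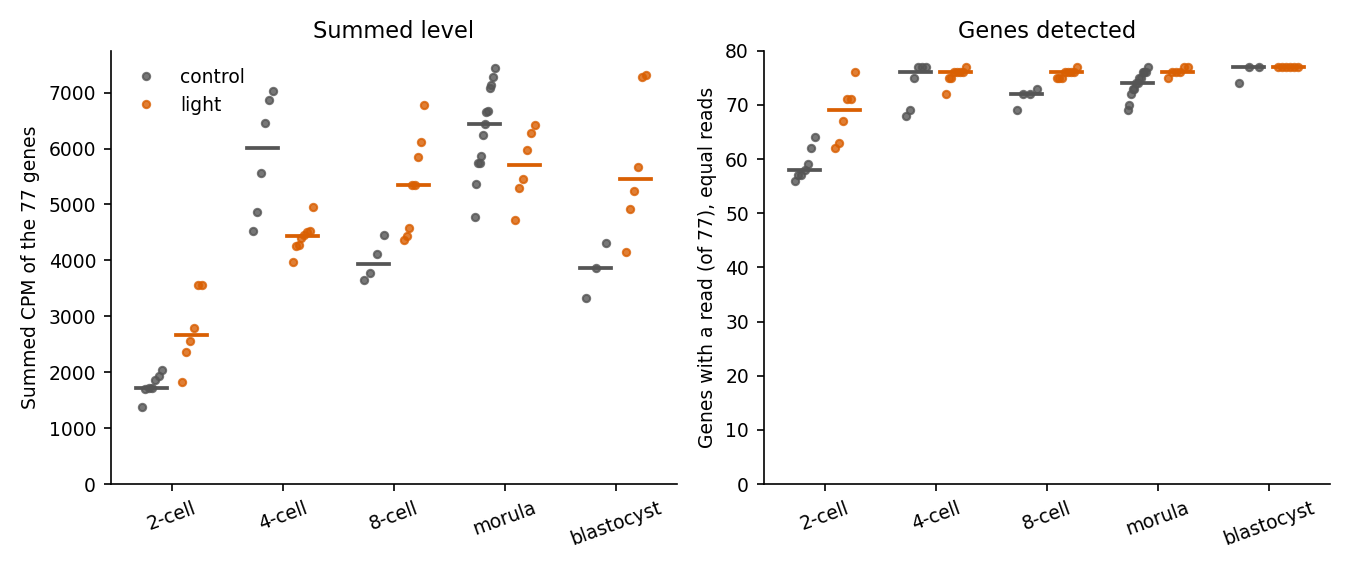
Left, summed CPM of the 77 genes in each library, by stage, with control libraries in grey and light libraries in orange; right, how many of the 77 had a read after thinning every library to 318177 reads. Points are libraries and bars are medians, and the 2-cell control libraries are lowest in both panels.

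Fewer of the genes were seen at all at 2-cell. After each library was thinned to 318177 reads, the number of the 77 with a read had a median of 58 in control 2-cell libraries, with a range of 56 to 64, and a median of 69 in light 2-cell libraries, with a range of 62 to 76. From 4-cell on, every library had 68 or more, and the 6 light blastocyst libraries had all 77. Without thinning the 2-cell medians were 69 and 73 genes. The 2-cell ranges of the 2 groups thus overlapped only at 62 to 64 genes when depth was equal.

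The levels of single genes were compared per kilobase of their principal transcript. Over all libraries the highest mean levels were those of Mrpl22, whose protein lines the exit tunnel, at 235 CPM per kb, and Mrpl20, another large-subunit protein with a bacterial counterpart, at 179 CPM per kb. Mrps24, of the small subunit, followed at 127, then Mrpl12, the stalk protein that binds translation factors, at 104, and Mrpl4 at 103 CPM per kb. This order weights every library alike, and it differed between groups: in control 2-cell Mrpl18 was highest at 67.1 CPM per kb with Mrpl22 at 19.9, and in control blastocysts Mrpl18 at 108 with Mrpl22 at 58.3. The lowest were Mrps5 at 6.24, Mrps35 at 7.09, Mrpl3 at 7.81, Mrpl1 at 8.32 and Mrps16 at 8.49 CPM per kb. The levels thus spread widely although the proteins are parts of 1 particle. The 5 lowest have principal transcripts of 2572 nt or more in the annotation.

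**Figure D2:**
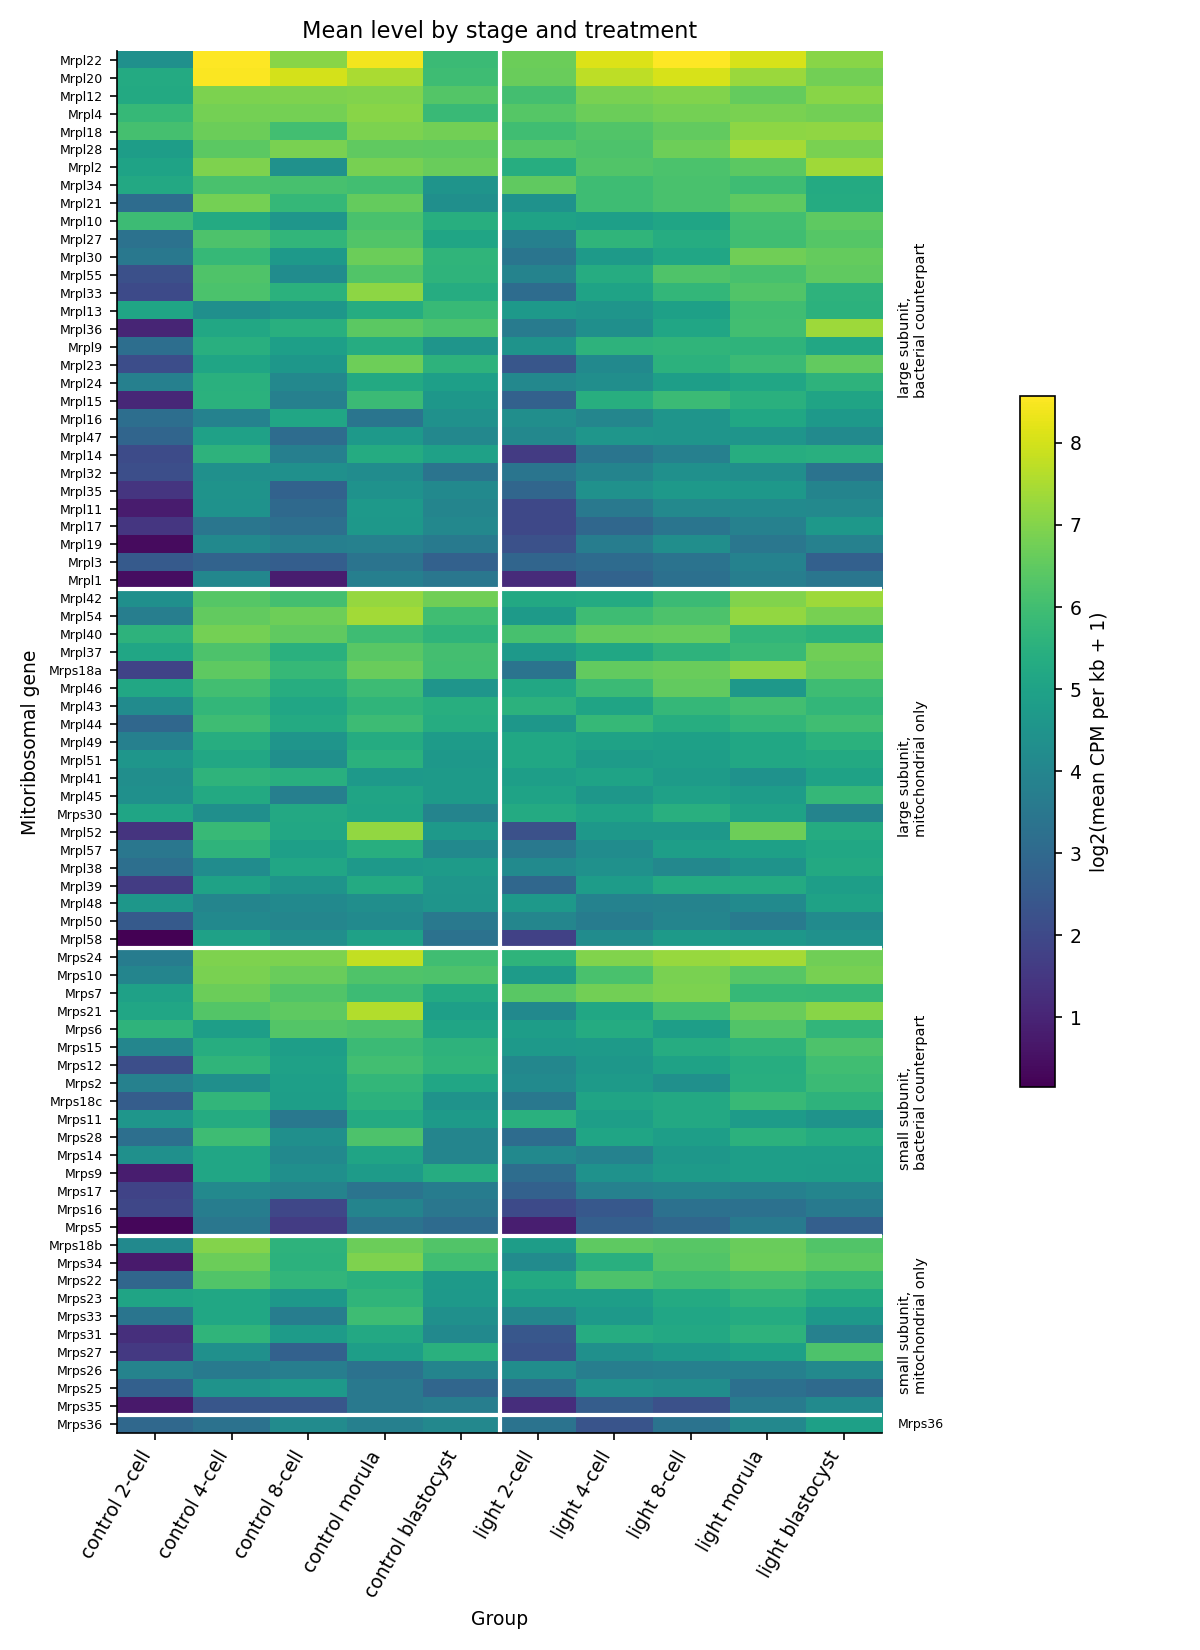
Mean level of each of the 77 genes (rows) in the 10 groups (columns), as log2 of mean CPM per kb of principal transcript plus 1, with genes grouped by subunit and by whether the protein has a bacterial counterpart. The control 2-cell column is the darkest for most genes, and the brightest cells are Mrpl22 and Mrpl20 in control 4-cell and Mrpl22 in light 8-cell.

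In control embryos 60 of the 77 genes had their lowest mean CPM at 2-cell, and 32 had their highest at 4-cell and 32 at morula. In light embryos 53 had their lowest mean CPM at 2-cell, and the highest was at morula for 26 and at blastocyst for 30. The highest control stage was thus split between 4-cell and morula, with 7 genes highest at 8-cell between them.

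From 2-cell to 4-cell in control embryos, 51 of the 77 genes rose and none fell (limma), against 17.7% higher and 30.2% lower among the 17247 genes tested. The median difference of the 77 was 2.03 on the log2(CPM + 1) scale, against -0.50 over all genes tested. Positive differences were found for 70 of the 77 (41.2% of all genes), and the 2 stages were fully apart, library by library, for 32 of them (21.9% of all genes). All roles took part: 23 of 30 large-subunit genes with a bacterial counterpart rose, 13 of 20 found only in mitochondria, 9 of 16 small-subunit genes with a counterpart and 6 of 10 without. Among the 52 genes that overlap no other coding gene, 33 rose.

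The steepest was Mrps34, a mitochondria-only protein of the small subunit. Its level was 0, 0.353 and 1.73 CPM (lowest, median, highest) in control 2-cell and 12.6, 78.1 and 197 CPM in control 4-cell libraries, so that it was close to undetected before and present in every library after. The difference was 5.54 on the log2(CPM + 1) scale (SE 0.66, limma adjusted p = 7.92e-07). Mrpl19, of the large subunit, went from 0, 0 and 8.29 CPM to 9.46, 90.5 and 156 CPM, with a difference of 5.22 on the same scale (SE 0.73, limma adjusted p = 6.48e-06). Mrpl15, also of the large subunit, went from 0, 3.94 and 12.0 CPM to 37.2, 249 and 279 CPM, with a difference of 5.13 (SE 0.69, limma adjusted p = 3.97e-06). In each of the 3 every 4-cell library was above every 2-cell library. The genes Mrps34 and Mrpl19 overlap other coding genes, Nme3 and Mapk8ip3 for the first and Gcfc2 for the second, and where strand was not used in counting their reads cannot be told apart.

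After 4-cell the control changes were fewer. From 4-cell to 8-cell Mrpl2, a protein near the catalytic centre of the large subunit, was the 1 gene that fell, against 0.601% lower and 1.26% higher over all genes tested. Its level was 86.7, 128 and 163 CPM in the control 4-cell libraries. The 4 control 8-cell libraries had 8.82, 21.1, 24.3 and 28.2 CPM, all below every 4-cell library, a fall of 2.62 on the log2(CPM + 1) scale (SE 0.54, limma adjusted p = 0.0109). The count was 6 without control 4-cell libraries 1 and 2 together, 3 without control 4-cell library 1 or 8-cell library 1, and 2 without 4-cell library 2 or 3 or 8-cell library 2 or 4. On the deposited scale 10 genes fell, where the median of all genes was -0.56 and that of the 77 was -1.27.

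From 8-cell to morula in controls 20 of the 77 genes rose and none fell, against 6.22% higher and 8.96% lower. The median difference was 0.80 on the log2(CPM + 1) scale, against -0.08 over all genes. Those that rose were 13 of 30 large-subunit genes with a bacterial counterpart and 2 of 20 without, and 3 of 16 small-subunit genes with a counterpart and 2 of 10 without. Mrpl11, at the base of the stalk that binds translation factors, was at 0 CPM in control 8-cell libraries 2 and 4, at 11.0 CPM in library 3 and at 76.1 CPM in library 1, and had a lowest, median and highest level of 13.6, 70.9 and 154 CPM in morulae. One 8-cell library was thus as high as the morulae and the others were below all of them. The Mrpl11 difference was 3.53 on the log2(CPM + 1) scale (SE 0.85, limma adjusted p = 0.00523). Mrpl1, of the mobile L1 stalk, had 0, 2.70, 3.71 and 4.41 CPM at 8-cell and 2.01, 30.7 and 115 CPM in morulae, a difference of 3.42 (SE 0.80, limma adjusted p = 0.00397). Mrpl55 had 0, 0.674, 33.4 and 33.8 CPM at 8-cell and 20.5, 70.6 and 139 CPM in morulae, a difference of 3.22 (SE 0.78, limma adjusted p = 0.00533). The 8-cell libraries of Mrpl55 fell into a pair near 0 and a pair within the morula range. Without control 8-cell library 3 the count was 13, and by edgeR 11. By edgeR Mrpl11 and Mrpl55 were not called (adjusted p = 0.194 and 0.105), and Mrpl55 was not called without library 3.

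From morula to blastocyst in controls 8 of the 77 fell and none rose, against 5.39% lower and 7.77% higher. The strongest fall was that of Mrpl52, a mitochondria-only large-subunit protein, from 30.7, 62.6 and 80.4 CPM in morulae to 0, 10.3 and 20.1 CPM in the 3 blastocyst libraries. It fell by 3.28 on the log2(CPM + 1) scale (SE 0.66, limma adjusted p = 0.00143), and was not called by edgeR (adjusted p = 0.0613). Mrps21, of the small subunit, went from 49.98, 86.0 and 139 CPM to 4.29, 17.5 and 20.5 CPM and fell by 2.85 on that scale (SE 0.48, limma adjusted p = 0.000222). Mrpl22 went from 119, 244 and 359 CPM to 25.7, 37.7 and 62.9 CPM and fell by 2.56 (SE 0.36, limma adjusted p = 3e-05). In all 3 genes every blastocyst library lay below every morula library. With 3 control blastocysts the count was 4 without library 1 or library 3, 5 without library 2, and 4 by edgeR.

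The comparison of light with control embryos asked how the lit embryo differed at each stage. At 2-cell, when the embryos had just been lit, 15 of the 77 genes were higher in light and none was lower (limma), against 6.94% higher and 5.02% lower among the 18090 genes tested. The median difference of the 77 was 0.82 on the log2(CPM + 1) scale against 0.05 over all genes, and 67 of the 77 were above 0 (51.8% of all genes). The 15 were Mrpl15, Mrpl19, Mrpl22, Mrpl28, Mrpl36, Mrpl43, Mrpl47, Mrpl49, Mrpl58, Mrps7, Mrps9, Mrps12, Mrps22, Mrps24 and Mrps34. They came from both subunits, 6 of 30 large-subunit genes with a bacterial counterpart, 3 of 20 without, 4 of 16 small-subunit genes with a counterpart and 2 of 10 without.

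**Figure D3:**
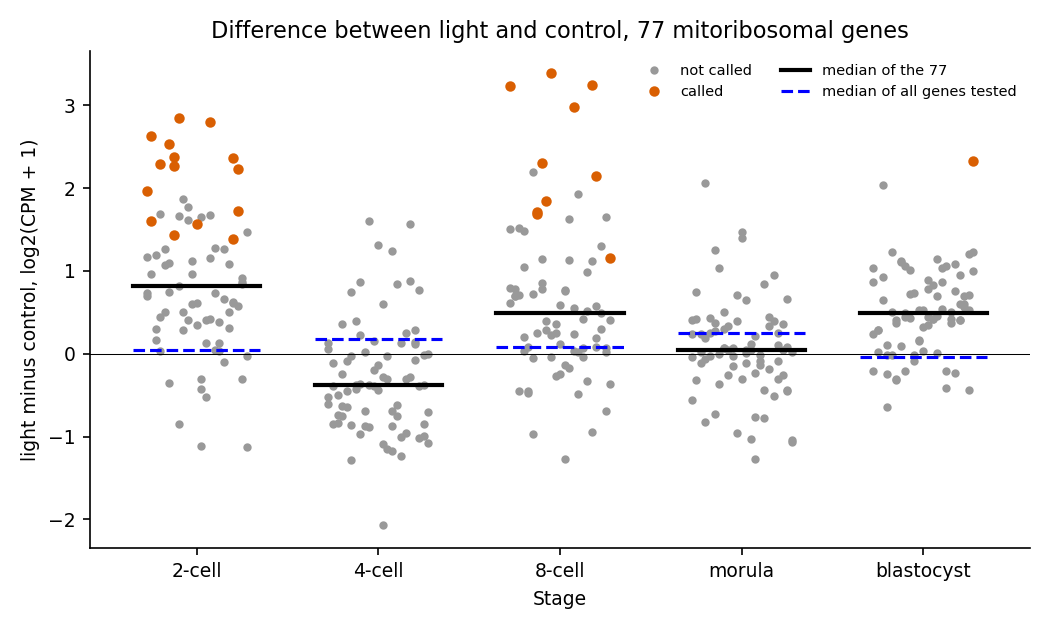
Difference between light and control on the log2(CPM + 1) scale for each of the 77 genes at each stage; orange points were called, black bars are the medians of the 77 and dashed blue bars the medians of all genes tested. The 77 lie above all genes at 2-cell (0.82 against 0.05), 8-cell (0.49 against 0.08) and blastocyst (0.49 against -0.04) and below them at 4-cell (-0.38 against 0.17).

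Mrps22, a mitochondria-only protein of the small subunit, was the clearest. Its level was 2.07, 6.66 and 15.0 CPM in the 7 control libraries and 15.6, 45.7 and 75.4 CPM in the 6 light libraries. All light libraries were above all controls, and groups stood apart for 2 of the 77 genes and for 4.81% of all genes tested. The difference was 2.37 on the log2(CPM + 1) scale (SE 0.59, limma adjusted p = 0.00700), and it was called with any 1 library left out and under every other scale, pseudocount, filter and test used. Among the windows printed above, which were chosen to show matches, its ETS letters lay closest to the start. They began 11 bases before it, against 12 for the nearer match in Mrpl43, and a link to the call was not tested.

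Mrps34 was at 0, 0.353 and 1.73 CPM in control and 1.54, 10.3 and 38.4 CPM in light 2-cell libraries, with overlap only at the lowest light value. The difference was 2.84 on the log2(CPM + 1) scale (SE 0.75, limma adjusted p = 0.0115). Mrpl36, a large-subunit protein with a bacterial counterpart, was at 0 CPM in 5 of the 7 control libraries and at 6.00 CPM in the highest, library 8. All 6 light libraries held Mrpl36, at 3.60, 10.6 and 18.1 CPM (lowest, median, highest), and the difference was 2.80 (SE 0.71, limma adjusted p = 0.00847), not called by edgeR (adjusted p = 0.0729). Mrpl36 shares its locus with Ndufs6, so the source of its reads is uncertain.

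Mrpl19 was at 0, 0 and 8.29 CPM in control and 0, 16.1 and 39.4 CPM in light, a difference of 2.63 on the log2(CPM + 1) scale (SE 0.86, limma adjusted p = 0.0389). Mrps12, a protein of the decoding centre, was at 0, 0 and 12.7 CPM in control and 3.14, 16.8 and 19.0 CPM in light, a difference of 2.53 (SE 0.80, limma adjusted p = 0.0331). Both had overlapping groups and both lost their call without any of 9 of the 13 libraries. Mrpl19 also lost it with a pseudocount of 0.1, without the filter on low values and on the deposited scale, and Mrps12 without that filter and by edgeR. The abundant exit tunnel gene Mrpl22 rested on more reads, with 2.88, 11.8 and 26.0 CPM in control and 25.2, 63.2 and 133 CPM in light, and a difference of 2.26 (SE 0.53, limma adjusted p = 0.00427). Its groups touched only at 1 pair of libraries. Mrpl58, which can release a peptide from a stalled mitochondrial ribosome, had 0, 0 and 0.706 CPM in control and 0, 4.18 and 17.2 CPM in light.

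The count at 2-cell moved with single libraries. It lay between 6 and 18 with 1 library left out, at 9 without control library 10 or light library 10, 8 without control library 24 or light library 12, 7 without light library 9 and 6 without light library 14. Mrpl22, Mrpl28, Mrpl36, Mrpl49, Mrps22 and Mrps34 were called each time. Of the 15 genes, 8 overlap another coding gene, as do 25 of the 77. Among the 52 genes that overlap none, 7 were called higher. Some genes ran the other way: Mrpl10, of the stalk base, had 66.6, 103 and 172 CPM in control and 45.4, 53.5 and 56.6 CPM in light 2-cell libraries, with no overlap and a difference of -0.85 on the log2(CPM + 1) scale, but limma's adjusted p was 0.0882 and it was not called. Mrpl10 was named after its values were seen.

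Other signals moved with light at 2-cell. The 11 maternal oocyte genes, such as Bmp15 and Bcl2l10, summed to 2703, 4010 and 6902 CPM in control and to 792, 1316 and 2055 CPM in light libraries, with no overlap, and 5 of the 11 fell and none rose. The summed transient 2-cell genes overlapped, at 348, 451 and 770 CPM against 198, 539 and 1545 CPM. Over the 6 of 9 cumulus cell markers that the table holds, the sums were 20.5, 33.9 and 78.1 CPM in control and 53.0, 118 and 169.7 CPM in light libraries; Amhr2 made up most of them, Inha was at 0 in every 2-cell library and 2 of 4 tested were higher in light. The ratio of reads on Gm42418 to those on CT010467.1 was 2.34 to 4.03 in control and 1.58 to 1.77 in light 2-cell libraries. The ratio was also apart at morula, at 2.34 to 4.14 in control and 1.49 to 1.67 in light. The part of these signals in the mitoribosomal result was not tested.

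At 4-cell no gene of the 77 was called in either direction by limma or by edgeR, against 1.69% higher and 0.466% lower over all genes. An unadjusted p under 0.05 was found for 10 of the 77 by limma and 16 by edgeR. The share of all genes under that p was not counted, so these counts have no background to be set against. The median difference was -0.38 on the log2(CPM + 1) scale against 0.17 over all genes, and 23 of the 77 were above 0 (58.4% of all genes). Groups stood apart for Mrpl14 (0.819% of all genes), with 10.9 to 48.7 CPM in control and 2.65 to 10.8 CPM in light libraries. Without control libraries 1 and 2, 2 genes were called higher and none lower (limma), against 2.42% and 0.451% of all genes, and the median was -0.59 against 0.03. Without control library 3, 4 genes were called lower (Mrpl57, Mrpl14, Mrpl20 and Mrps14) and 1 higher (Mrps30), against 2.29% and 3.98% of all genes. Library 3 is the control most like the light libraries, with a median correlation of 0.887 with them, so leaving it out widens the differences by construction and these calls are no test of light. Mrpl57, a mitochondria-only large-subunit protein, was at 24.9 CPM in control library 3 and at 119 to 226 CPM in the other 5, against 24.8 to 71.3 CPM in the 8 light libraries. That library held the lowest control value of Mrpl57, Mrpl14, Mrpl20 and Mrps14.

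At 8-cell 10 of the 77 genes were higher in light and none was lower (limma), against 4.83% higher and 3.66% lower over the 14728 genes tested. The median difference was 0.49 on the log2(CPM + 1) scale against 0.08 over all genes. Of the 10, 9 encode large-subunit proteins, 8 of the 30 with a bacterial counterpart and 1 of the 20 without. Of the small-subunit genes, 0 of 16 with a counterpart and 1 of 10 without were called. For 7 of the 10, and for no other gene of the 77, all light libraries were above all control libraries, while 5.61% of all genes had groups apart. Positive differences were found for 60 of the 77 (53.0% of all genes).

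Mrpl55 had 0, 0.674, 33.4 and 33.8 CPM in the 4 control libraries and 48.0, 67.7 and 92.1 CPM (lowest, median, highest) in the 8 light libraries. Every light library was higher than every control, and the difference was 3.38 on the log2(CPM + 1) scale (SE 0.77, limma adjusted p = 0.00694). By edgeR Mrpl55 was not called (adjusted p = 0.105). The 80 bases printed for it hold none of the letters searched. Mrpl1 had 0, 2.70, 3.71 and 4.41 CPM in control and 15.5, 29.3 and 49.3 CPM in light, a difference of 3.23 (SE 0.70, limma adjusted p = 0.00482). Mrpl35, of the large subunit, had 4.41, 18.2, 24.0 and 41.6 CPM in control and 71.0, 89.4 and 111 CPM in light, a difference of 2.30 (SE 0.47, limma adjusted p = 0.00310). Light and control were apart in both genes, and both kept their call under each other setting run.

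Mrps27, a small-subunit protein with RNA-binding repeats, had 0, 0 and 4.72 CPM in control libraries 2, 3 and 4 and 38.0 CPM in control library 1, against 13.9, 33.9 and 135 CPM in light. Its difference was 3.25 on the log2(CPM + 1) scale (SE 0.86, limma adjusted p = 0.0195), and the call was lost without control library 2 or 3 and by edgeR (adjusted p = 0.209). Mrpl11 had a like pattern, at 0, 0, 11.0 and 76.1 CPM in control, again highest in library 1, and at 17.4, 36.3 and 107 CPM in light, a difference of 2.97 (SE 0.90, limma adjusted p = 0.0402). The Mrpl11 call was lost without any of 7 of the 12 libraries (control 2 and 4, light 5, 6, 9, 10 and 11), without the filter on low values and by edgeR (adjusted p = 0.493). These 2 genes overlapped between groups through control library 1. Mrpl15 had 32.4, 58.4 and 72.8 CPM (lowest, median, highest) in control and 174, 232 and 376 CPM in light, and Mrpl22 had 38.4, 91.0 and 162 CPM in control and 213, 269 and 314 CPM in light, both without overlap.

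Mrpl15, Mrpl22 and Mrpl47 were called in light at both 2-cell and 8-cell, which is 20.0% of the 15 and 30.0% of the 10. The overlap over all genes was not counted. With each library left out in turn, Mrpl22 kept its call at both stages, Mrpl15 only at 8-cell and Mrpl47 at neither. By edgeR 5 genes were called at 8-cell. The control 8-cell libraries carried other marks: the maternal oocyte genes summed to 292 to 424 CPM there and to 100 to 194 CPM in light 8-cell libraries, and the transient 2-cell genes to 171 to 628 CPM against 5.49 to 264 CPM. The ratio of reads on Gm42418 to those on CT010467.1 was 2.01 to 2.34 in control and 1.52 to 1.71 in light 8-cell libraries. Their part in the 8-cell result was not tested.

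**Figure D4:**
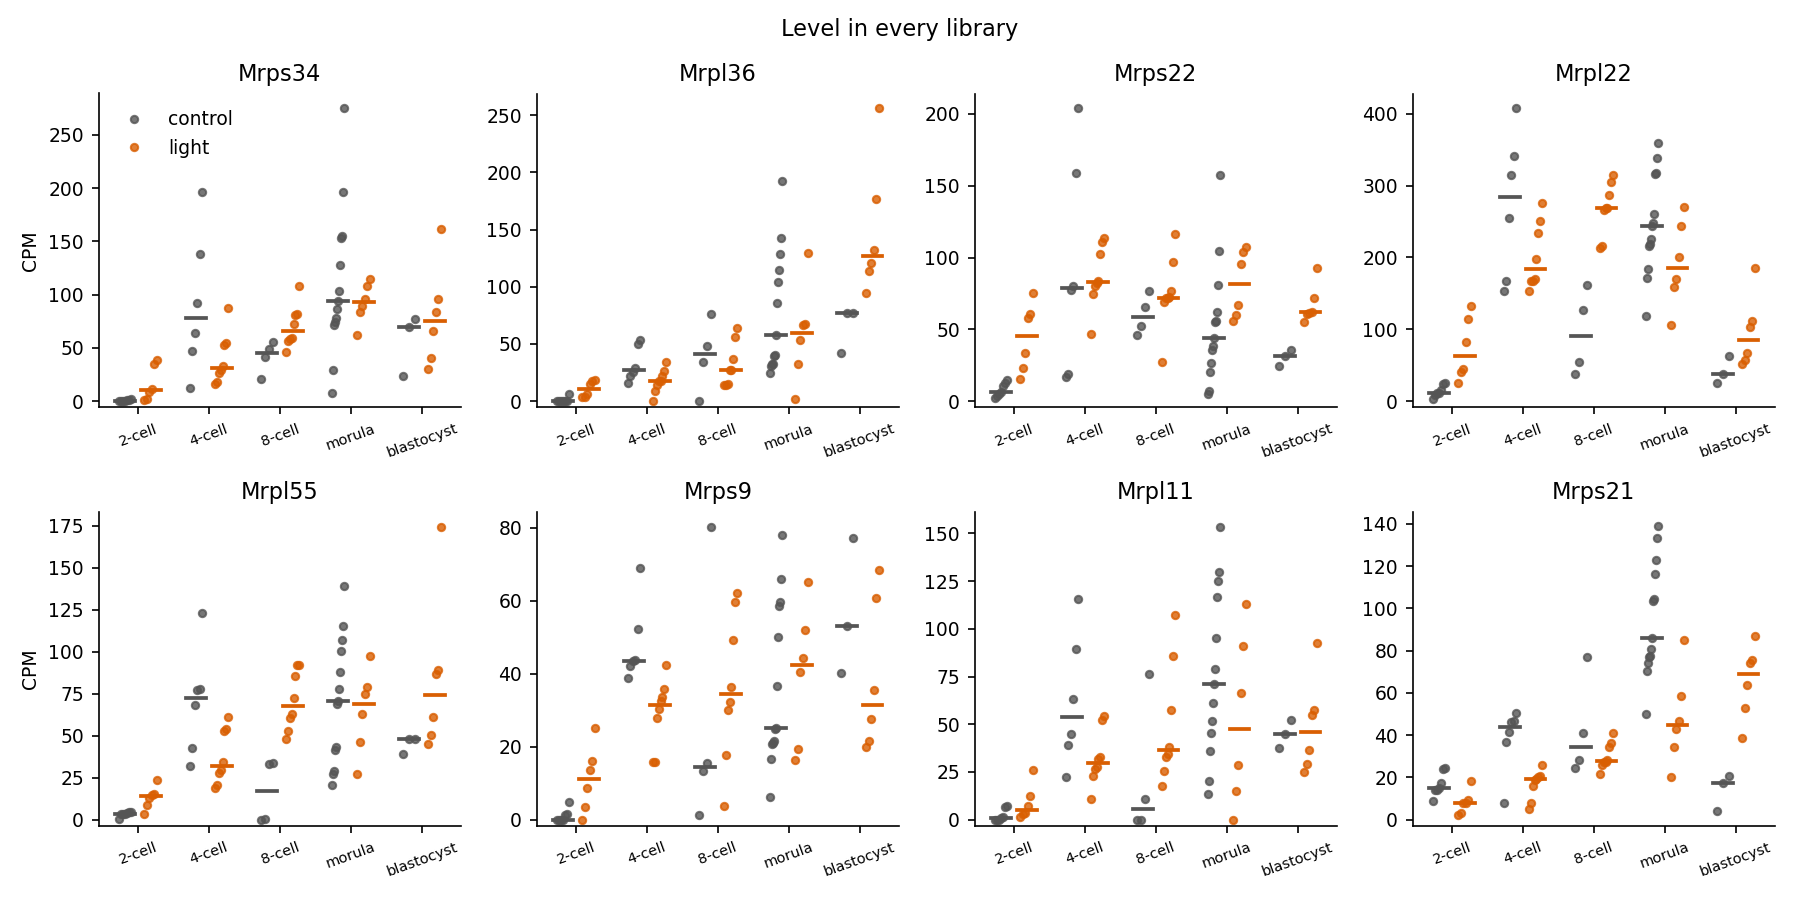
CPM of 8 genes in every library, by stage, control in grey and light in orange; points are libraries and bars are medians. Mrps34, Mrpl36, Mrps22 and Mrpl22 are close to 0 or lowest in control 2-cell libraries, Mrpl55 separates control from light at 8-cell, and Mrps21 separates them at blastocyst.

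In morulae no gene of the 77 was called by limma or by edgeR, against 0.847% higher and 0.742% lower over all genes. An unadjusted p under 0.05 was found for 5 of the 77 by limma and 4 by edgeR, and the share over all genes was not counted. The median difference was 0.04 on the log2(CPM + 1) scale against 0.25 over all genes, and on the deposited scale -0.16 against 0.10, so its direction turned with the scale. Of the 77, 43 were above 0 (61.3% of all genes) and none had groups apart (0.513% of all genes). In blastocysts Mrps21 was the 1 gene called higher in light, against 1.03% of all genes, and none was lower. The 3 control libraries had 4.29, 17.5 and 20.5 CPM of Mrps21 and the 6 light libraries 38.7, 69.0 and 86.9 CPM (lowest, median, highest). Light was above control in every library, and the difference was 2.32 (SE 0.56, limma adjusted p = 0.0349), but the call was lost without any of 6 of the 9 libraries (control 1 and light 13, 15, 23, 24 and 26), with edgeR, with a pseudocount of 0.1, without the filter on low values and on the deposited scale. Groups stood apart for 9 of the 77 (7.21% of all genes), and 63 were above 0 (48.3%). The blastocyst median was 0.49 against -0.04 over all genes, and on the deposited scale -0.25 against -0.64. The direction of the 77 in blastocysts therefore turned with the scale, while their median was above that of all genes on both. The trophectoderm genes summed to 961, 4112 and 9609 CPM in the 3 control and to 9502 to 13625 CPM in the light blastocyst libraries, and their part in this result was not tested.

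Mrpl11 and Mrps9, which the study names, were followed through every stage. Mrpl11 had a median of 0.734 CPM in control and 5.31 CPM in light 2-cell libraries, a difference of 1.68 on the log2(CPM + 1) scale that was not called (SE 0.78, limma adjusted p = 0.157). It was called only at 8-cell, where the call did not outlast the loss of most single libraries or the change to edgeR, and differed by -0.87 at 4-cell, -1.27 at morula and 0.01 at blastocyst, with adjusted p-values from limma of 0.309, 0.352 and 0.997. Mrps9, a small-subunit protein, was at 0, 0 and 4.94 CPM in control and 0, 11.1 and 25.1 CPM in light at 2-cell, a difference of 2.30 (SE 0.78, limma adjusted p = 0.0477). At that stage Mrps9 was not among the genes that kept their call with each library left out in turn. Its differences at later stages were -0.75 at 4-cell, 1.04 at 8-cell, 0.20 at morula and -0.64 at blastocyst, none of them called, with limma adjusted p-values from 0.332 to 0.878.

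In light embryos 34 of the 77 genes rose from 2-cell to 4-cell and none fell, against 10.9% higher and 24.2% lower over all genes. The median difference was 0.95 on the log2(CPM + 1) scale against -0.33 over all genes. Libraries of the 2 stages were fully apart for 6 of the 77 (12.6% of all genes). Mrps31, a mitochondria-only small-subunit protein, went from 0, 0.270 and 37.7 CPM to 18.5, 64.1 and 87.6 CPM, a difference of 4.65 (SE 0.68, limma adjusted p = 5.64e-06). Mrps18a went from 0, 5.50 and 27.6 CPM to 57.2, 76.1 and 141 CPM, a difference of 3.77 (SE 0.54, limma adjusted p = 4.26e-06), without overlap. Mrpl58 went from 0, 4.18 and 17.2 CPM to 30.5, 45.9 and 68.9 CPM, a difference of 3.25 (SE 0.57, limma adjusted p = 5.28e-05), also without overlap. Of the 51 genes that rose in control and the 34 that rose in light, 31 were in both lists, which is 60.8% of the first and 91.2% of the second.

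Later light stages moved less. From 4-cell to 8-cell none of the 77 was called by limma or edgeR, against 0.836% higher and 1.56% lower over all genes. An unadjusted p under 0.05 was found for 11 by limma and 12 by edgeR, and the share over all genes was not counted. From 8-cell to morula 3 rose and 2 fell, against 5.20% and 5.40%. Mrpl52 went from 0, 8.41 and 21.96 CPM to 26.5, 39.6 and 76.2 CPM, a difference of 2.39 on the log2(CPM + 1) scale (SE 0.64, limma adjusted p = 0.0137). Mrpl30 went from 18.8, 31.0 and 47.5 CPM to 64.3, 90.1 and 177 CPM, and Mrps2 from 19.6, 34.8 and 70.5 CPM to 71.3, 88.9 and 104 CPM, both without overlap. The genes that fell were Mrpl46, from 76.9, 102 and 146 CPM to 12.2, 24.3 and 49.3 CPM without overlap, and Mrps7, from 115, 236 and 353 CPM to 67.2, 107 and 144 CPM. The Mrps2 call was lost without any of 3 of the 14 libraries, on the deposited scale and by edgeR. For Mrps7 the call was lost without any of 4 of the 14 libraries.

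From light morula to light blastocyst 2 rose and 3 fell, against 7.94% and 5.34% over all genes. On the deposited scale 15 were called, all lower, so neither rise was called there, and the median of all genes was -0.45 on the log2 scale. Mrpl36 went from 1.83, 59.9 and 129 CPM to 94.8, 127 and 256 CPM, and Mrps27 from 20.4, 32.0 and 152 CPM to 79.7, 149 and 176 CPM. Both rises had overlapping groups. Mrps31 fell from 41.7, 75.5 and 87.8 CPM to 9.67, 17.9 and 35.4 CPM, and Mrpl21 from 74.4, 105 and 119.9 CPM to 33.3, 43.4 and 57.9 CPM, each without overlap. Mrpl22 fell from 106, 186 and 271 CPM to 52.2, 84.6 and 186 CPM, a call that was lost without any of 8 of the 12 libraries. For Mrpl21 the same held for 7 of the 12, and for Mrpl36 for 4 of the 12, and Mrpl36 was also not called with a pseudocount of 0.1 and without the filter. The count was 3 without light blastocyst library 26.

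Whether the stage change itself differed between light and control was tested by the interaction term. From 2-cell to 4-cell the change was smaller in light for 8 of the 77 genes and larger for none, against 2.13% and 1.94% over the 20125 genes tested. The median of the 77 was -1.27 on the log2(CPM + 1) scale against 0.09 over all genes. Mrpl36 had mean levels of 0.940 and 32.7 CPM in control and of 10.7 and 17.7 CPM in light, at 2-cell and 4-cell, and its change in light was smaller by 3.98 on the log2(CPM + 1) scale. Mrps34 went from 0.620 to 91.9 CPM in control and from 16.2 to 39.8 CPM in light, and Mrps12 from 3.13 to 44.2 CPM and from 13.5 to 20.4 CPM. The light means were thus higher at 2-cell and lower at 4-cell in all 3. The Mrps12 difference was not called by edgeR (adjusted p = 0.0781). The others were Mrps9, Mrpl22, Mrpl55, Mrpl43 and Mrpl20. The count was 13 without control 4-cell libraries 1 and 2 and 9 without library 3 (2.99% lower and 2.63% higher over all genes) and lay between 4 and 11 with any 1 library left out, with 4 without light 2-cell library 12 or 14 and 5 without control 2-cell library 9 or 10, control 4-cell library 5 or 6, light 2-cell library 9 or light 4-cell library 7.

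From 4-cell to 8-cell the change was larger in light for 9 genes and smaller for none, against 1.82% and 2.96% over all genes. Mrpl55 stood at mean levels of 70.1 and 17.0 CPM in control and at 37.3 and 70.8 CPM in light, a difference of the changes of 4.27 on the log2(CPM + 1) scale (SE 0.87, limma adjusted p = 0.00257). Mrpl11 stood at 62.4 and 21.8 CPM in control and 32.3 and 49.8 CPM in light, a difference of 3.85 (SE 1.00, limma adjusted p = 0.0191). Mrpl1 stood at 55.7 and 2.71 CPM in control and 21.7 and 30.7 CPM in light, a difference of 3.75 (SE 1.08, limma adjusted p = 0.0349), whose call was lost without any of 7 of the 26 libraries, with a pseudocount of 0.1 and without the filter. The Mrpl11 call was lost without control 8-cell library 2 or 4 and by edgeR (adjusted p = 0.202). Without control 4-cell libraries 1 and 2 there were 17 calls, 16 of them larger in light. In all 3 genes the control mean was lower at 8-cell than at 4-cell and the light mean was higher. From 8-cell to morula the change was smaller in light for Mrpl2, Mrpl15, Mrpl22 and Mrpl55 and larger for none, against 1.00% and 1.41%, and 7 genes were called without control morula library 2. Mrpl55 differed most, by -3.42 on the log2(CPM + 1) scale (SE 0.87, limma adjusted p = 0.0207), then Mrpl15 by -2.45 and Mrpl2 by -2.09. Mrpl15 was called under each alternative, Mrpl55 was not called without control 8-cell library 3 or 4 or by edgeR (adjusted p = 0.138), and Mrpl2 was not called without any of 7 of the 31 libraries or with a pseudocount of 0.1. From morula to blastocyst the change was larger in light for Mrps21, against 0.486% of all genes, by 3.37 (SE 0.63, limma adjusted p = 0.00226), and that call remained with each library left out.

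Genes that work with the mitochondrial ribosome were counted from lists, beside 6.94% higher and 5.02% lower of all genes at 2-cell and 4.83% and 3.66% at 8-cell. Several of the counts lie near those shares. At 2-cell, 4 of 24 assembly factors were higher in light and none was lower, among them Noa1, a GTPase, by 1.47 on the log2(CPM + 1) scale and Rbfa, a small-subunit maturation factor, by 2.81. Of 15 mitochondrial translation factors 3 were higher and 1 lower, including Tufm, the elongation factor that brings transfer RNA to the ribosome, by 2.94 and the release factor Mtrf1l by 2.16. Of 17 genes for mitochondrial transcription and DNA maintenance 4 were higher and none lower, including Polrmt, the mitochondrial RNA polymerase, by 3.02 (limma adjusted p = 4.97e-05) and Gabpa, the ETS family factor, by 1.98 (limma adjusted p = 0.000551). Of 20 mitochondrial aminoacyl-tRNA synthetases 2 were higher, Hars2 by 3.94 among them, and 1 lower, Lars2 by -1.73. Of 5 mitoribosomal proteins with other names that were tested, Gadd45gip1 was higher by 1.79. At 8-cell the same lists gave 1 assembly factor, no translation factor, 1 transcription gene and 3 synthetases higher, with Lars2 lower.

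The 13 proteins that the mitochondrial ribosome makes, all encoded by mitochondrial DNA, had messages that were lower in light wherever they were called. At 2-cell 4 of 13 were lower in light, at 4-cell 4, at 8-cell 9, at morula 2 and at blastocyst none by limma, and limma called none higher at any stage. Examples were mt-Atp6, a subunit of ATP synthase, by -1.22 at 2-cell and -1.99 at 4-cell, and mt-Nd1, of complex I, by -1.58 at 8-cell. Between 2-cell and 4-cell none of the 13 was called in controls by limma and 1 was lower in light. Of 90 cytosolic ribosomal protein genes 39 were higher in light at 2-cell and none lower, 3 were higher at 8-cell, and 6 were lower at 4-cell and 6 at morula. Of the nuclear oxidative phosphorylation subunits 7 of 79 were higher and 1 lower at 2-cell, and 3 of 78 higher at 8-cell, both near the shares of all genes. The cytosolic genes thus had a larger share called than the mitoribosomal genes at 2-cell and a smaller one at 8-cell, a difference between lists that was not tested.

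**Figure D5:**
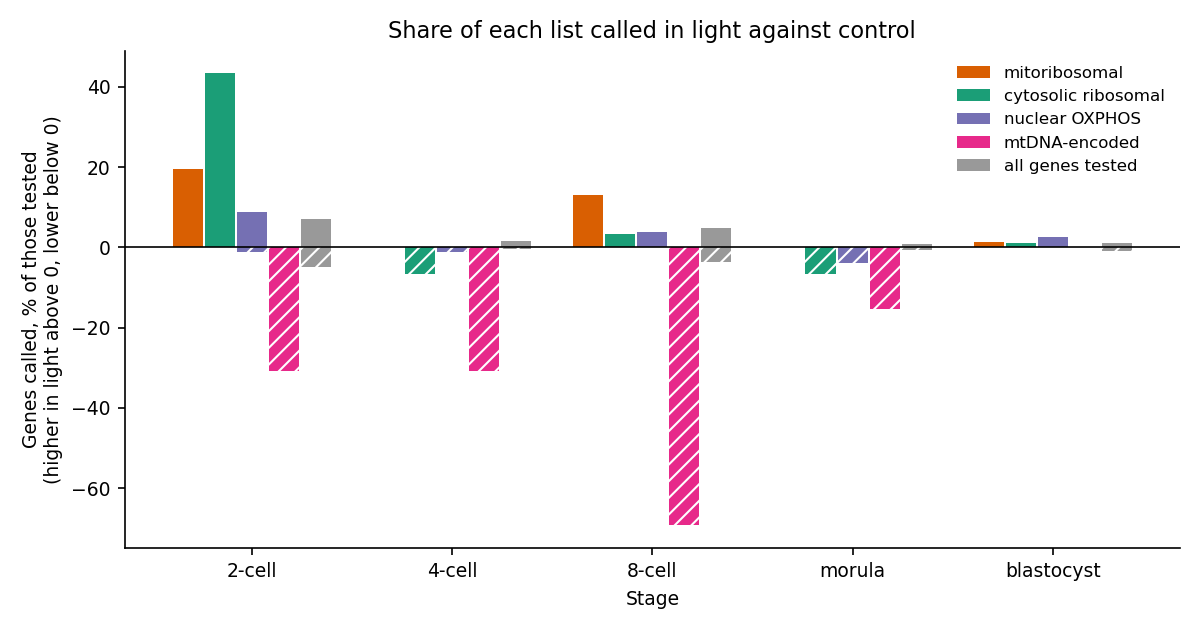
Percent of each list called in light against control at each stage, with genes higher in light above 0 and genes lower in light below 0 (hatched), for the 77 mitoribosomal genes, cytosolic ribosomal proteins, nuclear oxidative phosphorylation (OXPHOS) subunits, proteins encoded by mitochondrial DNA (mtDNA) and all genes tested. Mitoribosomal genes were called higher at 2-cell (15 of 77), 8-cell (10 of 77) and blastocyst (1 of 77), and the genes encoded by mitochondrial DNA were called lower at 4 stages.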

How the data were processed

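Single-cell SMART-seq2 libraries were aligned and counted by the authors, whose processing notes in the labels name HISAT2, HTSeq 0.9.1 and mm9; strand settings are not given in the sources used here. The authors deposited signal values for 67 libraries, reads divided by a size factor, and although their methods describe RPKM no division by length was found. Whole reads were recovered in at least 99.97% of values of each library (tolerance 0.01), with 11 genes holding values that were not whole. Symbols matched GENCODE M21 (GRCm38) for 99.7% of 26414 genes, and all coordinates are of that build.

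CPM was computed from these reads without CT010467.1 and Gm42418, and log2(CPM + 1) was tested with limma 3.58.1 in R 4.3.3 (trend) within the groups compared, for genes above 1 CPM in at least 3 libraries, a filter all 77 genes passed in each comparison. Calls needed an adjusted p under 0.05 and 2-fold. The fits were also run on simulated counts, in which the changed genes were well expressed and the spread between libraries was fixed. That setting does not represent genes at 0 in some libraries of a group and high in others, so it is no check of their calls. Alternatives were a pseudocount of 0.1, no filter, the deposited scale, a median-ratio scale, edgeR 4.0.16 (quasi-likelihood, TMM) on the recovered reads, each library left out and a replicate block.

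Genes were named as follows: the 5 called genes with the largest rise and fall for each light comparison, 3 for each stage change and interaction, the 5 highest and lowest levels per kb, 2 per list, and Mrpl11 and Mrps9. Full lists of called genes are also given for light against control at 2-cell and for the interactions. Some other genes are named outside this rule. The members, lists and tests were chosen with earlier results of these data known.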

Additional observations from a re-analysis of the deposited data

Results flagged for a closer look

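Single libraries far from the rest of their group were looked for with Dixon's test in 111 groups of 4 to 10 libraries, over the summed level, the number of genes with a read and the CPM of the genes named in the light comparisons. It marked 15 (13.5%). The test marks about 1 in 20 by chance only where values have a normal spread. Several marked groups held CPM values at 0, and in the marked counts of genes with a read the other libraries were all equal. The share marked therefore cannot show an excess over chance. In the number of genes with a read, without thinning, light 4-cell library 14 had 72, light morula library 1 had 75 and control 8-cell library 3 had 72, below all others. Light 4-cell library 14 and control 8-cell library 3 also had the fewest reads of their groups outside CT010467.1 and Gm42418, 377385 and 453578. After thinning, control 8-cell library 3 had 72 and library 4 had 69, so library 3 was no longer lowest. Light 4-cell library 14, at 72, and light morula library 1, at 75, remained lowest. At 2-cell, control libraries were high in Mrpl1 (library 24, 6.61 CPM), Mrpl19 (library 12, 8.29 CPM), Mrpl36 (library 8, 6.00 CPM) and Mrps9 (library 8, 4.94 CPM), and library 8 was low in Mrpl55 (0.353 CPM). At 8-cell, control library 1 was high in Mrpl11 (76.1 CPM, the others up to 11.0) and in Mrps27 (38.0 CPM, the others up to 4.72), and light library 11 was high in Mrps27 (135 CPM). The remaining marks were Mrpl19 in light 4-cell library 11 (110.3 CPM), Mrps21 in control 4-cell library 3 (7.70 CPM, the lowest), Mrps27 in light morula library 9 (152 CPM) and Mrpl55 in light blastocyst library 15 (175 CPM).

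The change between stages differed between light and control, by limma's interaction term, for the genes that follow, given as light minus control on the log2(CPM + 1) scale. From 2-cell to 4-cell the values were -3.98 for Mrpl36, -3.82 for Mrps34, -3.81 for Mrps12, -3.04 for Mrps9, -2.64 for Mrpl22, -2.50 for Mrpl55, -2.45 for Mrpl43 and -2.02 for Mrpl20. From 4-cell to 8-cell they were 4.27 for Mrpl55, 3.85 for Mrpl11, 3.75 for Mrpl1, 3.06 for Mrps5, 2.54 for Mrpl45, 2.53 for Mrpl2, 2.14 for Mrpl47, 2.07 for Mrpl22 and 1.86 for Mrpl15. From 8-cell to morula they were -3.42 for Mrpl55, -2.45 for Mrpl15, -2.09 for Mrpl2 and -2.06 for Mrpl22, and from morula to blastocyst 3.37 for Mrps21. Neighbouring changes share a stage, so Mrpl2, Mrpl15, Mrpl22 and Mrpl55 rest on the same 8-cell libraries with opposite signs.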

How the results depend on the processing

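Counts of the 77 genes called were within 1.5 times their value, under 1 changed setting at a time, except as follows. In light against control, 2-cell had 9 with a pseudocount of 0.1 and 8 without the filter (6 to 18 with 1 library left out), 4-cell 0 to 5 with 1 library left out, 8-cell 5 by edgeR, and blastocyst 0 with a pseudocount of 0.1, without the filter, on the deposited scale and by edgeR (0 to 1 with 1 library left out). In controls, 4-cell to 8-cell had 10 on the deposited scale (1 to 3 with 1 library left out), 8-cell to morula 11 by edgeR (13 to 21) and morula to blastocyst 4 by edgeR (4 to 9). In light, morula to blastocyst had 3 with a pseudocount of 0.1, 3 without the filter and 15, all lower, on the deposited scale (3 to 7), and 8-cell to morula, with 3 higher and 2 lower, had 2 and 3 on the deposited scale and 2 and 4 by edgeR. The interaction from 2-cell to 4-cell had 5 with a pseudocount of 0.1 and 5 on the deposited scale (4 to 11), and that from 8-cell to morula 3 to 7 with 1 library left out. The cause was not tested. The deposited scale moved the median of all genes in blastocysts to -0.64 from -0.04.

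Library numbers were shared between groups, and the deviations of same-numbered libraries were little correlated (between -0.07 and 0.06). Control 4-cell libraries 1, 2 and 4 still correlated most with the control 8-cell library of their number, and library 3 did not. Control morula libraries 1 and 2 did so with control blastocysts. Elsewhere this held only for number 12 at 2-cell and number 1 at 4-cell, light against control. Whether the number marks a pairing cannot be told from these values. With the replicate block, which keeps only libraries with shared numbers, counts were 0 for control 4-cell to 8-cell, 1 for 8-cell to morula and 1 for morula to blastocyst, and 3 for light 2-cell to 4-cell and 2 for 8-cell to morula. The same libraries without the number, an alternative chosen after seeing the data, gave 0, 0, 0, 3 and 2. Leaving out control 4-cell libraries 1 and 2 together, also chosen after seeing the data, gave 2 for light against control at 4-cell, 6 for control 4-cell to 8-cell, and 13 and 17 for the interactions from 2-cell to 4-cell and from 4-cell to 8-cell.

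Among single genes, Mrps9 in morulae turned to -0.46 with the block and in the same libraries without it, and Mrpl11 in blastocysts, at 0.01, turned to -0.72 on the deposited scale and -0.094 on the median-ratio scale and lay between -0.20 and 0.17 with 1 library left out. Genes at 0 in several 2-cell libraries rest on few reads.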
